A study of Mus musculus with 8 samples.

Results

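Distal regions that carried more H3K4me1 in mouse embryonic stem cells lacking MLL3 and MLL4 than in wild-type cells numbered 3354. They were chosen by their H3K4me1 level. Each lay in an intron or between genes, over 5 kb and at most 100 kb from the nearest transcription start, was above 0 in all 4 H3K4me1 groups, and stood at least 0.5 higher on the log2 scale without MLL3/4 in naive and also in formative cells. They made up 4.72% of the 71118 distal regions that met every condition other than the gain, within a table of 112137 regions. H3K27ac, which the choice did not use, was the readout, and the 67764 distal regions without the gain served for comparison.

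H3K27ac was profiled by CUT&Tag, in which an antibody tethers a transposase to chromatin that carries the mark. The 8 libraries formed 4 groups of 2: naive wild type (WT), formative WT, naive MLL3KO_MLL4KO and formative MLL3KO_MLL4KO, the double knockout called DKO here. Formative cells were collected 63 hours after withdrawal of LIF2i, the medium additions that hold cells in the naive state. The WT cells were the R1 line, the labels give the DKO cells no line, and replicates were independent cultures. An effect of the line or clone cannot be told apart from the loss of MLL3/4.

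MLL3 (Kmt2c) and MLL4 (Kmt2d) belong to the histone methyltransferases and are known for placing H3K4me1 at enhancers. H3K4me1 marks enhancers whether or not they are active, while H3K27ac marks active enhancers and promoters. Other members of the same enzyme family, among them MLL1, MLL2, SETD1A and SETD1B, also methylate H3K4 and are best known at promoters and CpG islands.

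The deposited levels of H3K27ac, and of H3K4me1 from libraries outside this series, were 1 pooled log2 value per group and region, so the DKO comparisons have no replicate spread, no p-value and no depth per library, and a difference counts as called at 2-fold or more. Only the comparison of formative with naive WT cells came with a replicated test, DiffBind, in the authors' deposited table. Levels went down with about the square of region width, so they can be compared between groups within a region but not between regions. The scaling between the 4 groups is not given in the sources used here. Over the 5537 regions annotated as promoters the median H3K27ac level was 8.19 in naive WT, 8.05 in formative WT, 8.76 in naive DKO and 8.65 in formative DKO. For the cell type markers, 3 of 8 stem cell genes, 1 of 4 formative genes and 0 of the 16 fibroblast, endoderm, trophoblast and neural genes had a promoter region in the table.

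The members differed from other distal regions in base composition. The windows of 200 bases below come from the centres of 5 members and have CpG in capitals. Actb, Ncoa6, Foxd3 and Fos are the nearest genes of CpG-rich members, and Hs2st1 that of a CpG-poor member with far more H3K27ac in DKO cells. Coordinates are mm10, plus strand, and the sequences are from the RefSeq GRCm38 assembly.
Actb window, chr5:142929234-142929433: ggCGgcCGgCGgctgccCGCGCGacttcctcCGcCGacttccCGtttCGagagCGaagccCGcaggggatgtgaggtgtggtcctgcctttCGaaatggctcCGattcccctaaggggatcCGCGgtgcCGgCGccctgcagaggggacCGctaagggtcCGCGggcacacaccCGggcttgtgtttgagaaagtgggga
Ncoa6 window, chr2:155473162-155473361: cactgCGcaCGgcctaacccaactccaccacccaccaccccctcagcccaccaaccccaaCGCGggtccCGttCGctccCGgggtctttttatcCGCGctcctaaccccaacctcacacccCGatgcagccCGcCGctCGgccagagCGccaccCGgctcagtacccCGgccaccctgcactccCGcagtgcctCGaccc
Foxd3 window, chr4:99650533-99650732: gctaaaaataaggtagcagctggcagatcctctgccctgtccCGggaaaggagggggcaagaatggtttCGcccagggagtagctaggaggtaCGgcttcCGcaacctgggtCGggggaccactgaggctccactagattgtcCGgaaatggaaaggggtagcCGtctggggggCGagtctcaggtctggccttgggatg
Fos window, chr12:85485856-85486055: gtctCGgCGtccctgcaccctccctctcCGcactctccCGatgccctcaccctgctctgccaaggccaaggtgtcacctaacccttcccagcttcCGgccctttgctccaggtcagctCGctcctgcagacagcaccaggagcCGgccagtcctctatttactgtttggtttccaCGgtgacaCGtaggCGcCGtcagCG
Hs2st1 window, chr3:144506432-144506631: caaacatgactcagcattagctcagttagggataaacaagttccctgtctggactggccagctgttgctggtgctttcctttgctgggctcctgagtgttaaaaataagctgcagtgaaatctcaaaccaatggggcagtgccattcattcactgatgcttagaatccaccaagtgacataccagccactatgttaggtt
The Actb window holds 22 CpG, the Ncoa6 window 18, the Fos window 12 and the Foxd3 window 8, against 0 in the Hs2st1 window.

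Another set of members lay over genes for small structural RNAs. The sequences below are 3 tRNA genes inside members, shown because the regions over such genes gained H3K4me1 more often than those over 4 other kinds of small RNA gene. They are printed in the direction of the gene, and capitals mark the first match to GTTCGANNC, the core of the internal promoter element called the B box.
n-TWcca2 gene, chr10:91181412-91181483, minus strand: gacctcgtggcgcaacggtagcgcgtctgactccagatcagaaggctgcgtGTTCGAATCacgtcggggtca
n-TNgtt12 gene, chr3:96497781-96497854, plus strand: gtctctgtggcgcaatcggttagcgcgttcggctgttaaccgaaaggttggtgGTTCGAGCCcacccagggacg
n-TVcac6 gene, chr1:171111443-171111515, plus strand: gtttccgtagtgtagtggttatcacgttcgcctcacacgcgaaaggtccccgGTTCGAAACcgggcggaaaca
A further set came from 1 repeat. The 30-mers below are from the largest family of like sequences, 335 members linked by pairwise matches. It is called the L1 family here because its representative region resembles the 5′ end of L1, a retrotransposon with its own CpG-rich promoter. No repeat annotation was used to name it, and 195 members match the representative itself. Capitals mark CpG.
CpG-holding 30-mer, chr6:117692163-117692192: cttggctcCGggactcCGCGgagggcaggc
commonest 30-mer, chr6:117693773-117693802: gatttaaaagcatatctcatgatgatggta
The CpG-holding 30-mer was in 127 distal regions, on either strand, and 114 of these were members (89.8%). The commonest 30-mer, from further inside the element and without CpG, was in 766 distal regions, of which 132 were members (17.2%). Both were picked for their number among the family's members.

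The share of distal regions that gained H3K4me1 climbed with CpG density. It was between 3.23% and 4.06% in each of the bins below 2 CpG per 100 bases, 8.18% at 2 to 3, 19.3% at 3 to 4, 31.4% at 4 to 6 and 68.3% (95 of 139 regions) at 6 or more. The same held outside repeats: among regions with less than 50% of their bases soft-masked as repeat, 200 of 363 regions with 4 or more CpG per 100 bases were members (55.1%), against 848 of 25833 (3.28%) below 1. Most members were nonetheless CpG-poor, with a median of 1.42 CpG per 100 bases (1.09 in the other distal regions), and 692 of 3354 had 3 or more.

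**Figure D1:**
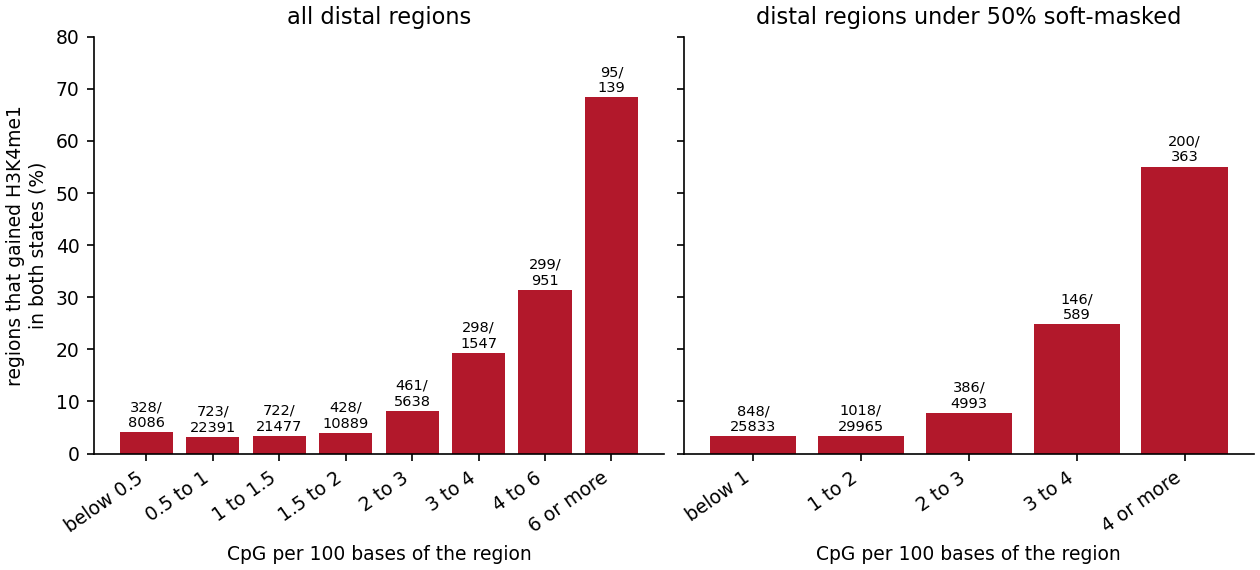
Share of distal regions that gained H3K4me1 in both states (vertical axis, percent) in bins of CpG density (horizontal axis), for all distal regions and for those under 50% soft-masked, with members over regions above each bar. The share is 4.06% in the lowest bin and 68.3% in the highest of the left panel.

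Members were also narrower, with a median width of 906.5 against 1078 bases, and more often intergenic, at 39.4% against 26.96%. A GENCODE transcript start lay inside 330 members (9.84%), against 7.02% of the other distal regions, although the deposited annotation placed all of them over 5 kb from a start. Among regions soft-masked over 90% or more of their bases, 356 of 2282 were members (15.6%). Members clustered: where the next distal region lay within 10 kb, it was a member for 17.1% of members and for 2.89% of the others.

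For the H3K4me1 levels that chose them, the members' median was 5.84 in naive WT, 6.76 in naive DKO, 5.59 in formative WT and 6.72 in formative DKO. The median gain was 0.83 in naive and 0.96 in formative cells. The rule in 1 state alone took in 7350 regions in naive and 15917 in formative cells. Just inside the threshold, at a smaller gain of 0.50, stood regions near Gm20755, Tcf7l2 and Ccne2, and just outside it, also at 0.50 after rounding, regions near Nr5a1 and Uspl1. The largest gains belonged in part to very narrow regions, such as 1 of 358 bases near Trim52, all of it soft-masked, where the H3K4me1 difference was 3.83 in naive and 5.90 in formative cells.

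The H3K27ac difference between DKO and WT cells had a higher median over the members than over other distal regions in both states, and in formative cells the excess among members under 50% soft-masked was seen at those with at least 2 CpG per 100 bases. Of the 3354 members, 3014 were above 0 in all 4 H3K27ac groups and 340 were listed at 0 in at least 1, most often naive WT (204). Over the 3014, the median level was 7.56 in naive WT, 7.75 in naive DKO, 8.29 in formative WT and 7.69 in formative DKO. The quartiles of the groups overlap throughout, and formative WT stands highest. The median difference, DKO minus WT, was 0.29 in naive and -0.53 in formative cells at members, against -0.20 and -0.74 at the other distal regions. At the 15628 distal regions that lost at least 0.5 of H3K4me1 in both states it was -0.82 and -0.95.

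By CpG density among regions under 50% soft-masked, the formative difference at members below 1 CpG per 100 bases was -0.75, against -0.69 at the other distal regions, and -0.73 against -0.71 at 1 to 2. It was 0.08 against -0.83 at 2 to 3, 0.55 against -0.77 at 3 to 4 and 0.46 against -0.11 at 4 or more. So in formative cells the members' medians in the lowest bins, over 723 and 892 members above 0, were not above those of other distal regions. Without the limit on soft-masking, members were at -0.72 against -0.80 below 0.5 and at -0.65 against -0.67 at 0.5 to 1. They were at -0.87 against -0.67 at 1 to 1.5 and at -0.54 against -0.78 at 1.5 to 2. In naive cells the members were higher in all 5 bins, from 0.21 against -0.28 in the lowest to 0.76 against 0.15 in the highest. By chromosome the members' median was the higher one on all 21 in naive cells and on 17 of 21 in formative cells, the exceptions being 1, 6, 12 and 17. Markers of cell state also differed between WT and DKO cells, in both states. The promoter regions of the 3 stem cell genes had a median of 4.54 in formative WT and 6.46 in formative DKO. In naive WT and naive DKO it was 8.64 and 8.08. The promoter region of the 1 formative gene was at 8.19 in formative WT and 6.74 in formative DKO. In naive WT and naive DKO it was at 6.73 and 8.61. The part of cell state in the results of either state was not tested.

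In naive cells 879 members were at least 2-fold higher in DKO (29.2%), where 19.2% of all regions were, and 534 were at least 2-fold lower (17.7%), where 26.3% of all regions were. In formative cells 474 were higher (15.7%, against 11.2% of all regions) and 1111 lower (36.9%, against 39.3%). Higher in both states were 190 members (6.30%), against 1.44% of the other distal regions, and lower in both were 313 (10.4%), against 14.8%. Among members the size of the H3K4me1 difference and the H3K27ac difference showed next to no rank correlation (Spearman's rho 0.007 in naive and -0.01 in formative cells, n = 3014 regions of the same pooled groups), within the range of gains that the rule left. Over all 67020 distal regions above 0, which include them, rho was 0.25 and 0.17.

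The sign of each median depends on the scaling. With the groups set to equal medians over all regions the members' median difference was 0.58 in naive and 0.23 in formative cells, with 37.8% higher and 13.2% lower in naive and 30.7% higher and 20.7% lower in formative cells. With equal medians over promoters it was -0.29 and -1.16, with 18.3% higher and 29.1% lower, and 7.40% higher and 54.1% lower. In formative cells 23.1% were higher and 28.2% lower with equal sums, 28.5% and 24.3% after quantile normalization, and 26.97% and 10.7% after a loess offset. Shares of all regions under these scalings are not given here. The median of all regions moved too, from -0.10 in naive and -0.63 in formative cells as deposited. It was 0.19 and 0.13 with all regions set equal and -0.67 and -1.26 with promoters set equal. The formative one was -0.24 with equal sums, 0.095 after quantile normalization and 0.042 after a loess offset. The excess of members over the other distal regions, 0.49 in naive and 0.20 in formative cells, is not altered by a shift of a whole group.

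**Figure D2:**
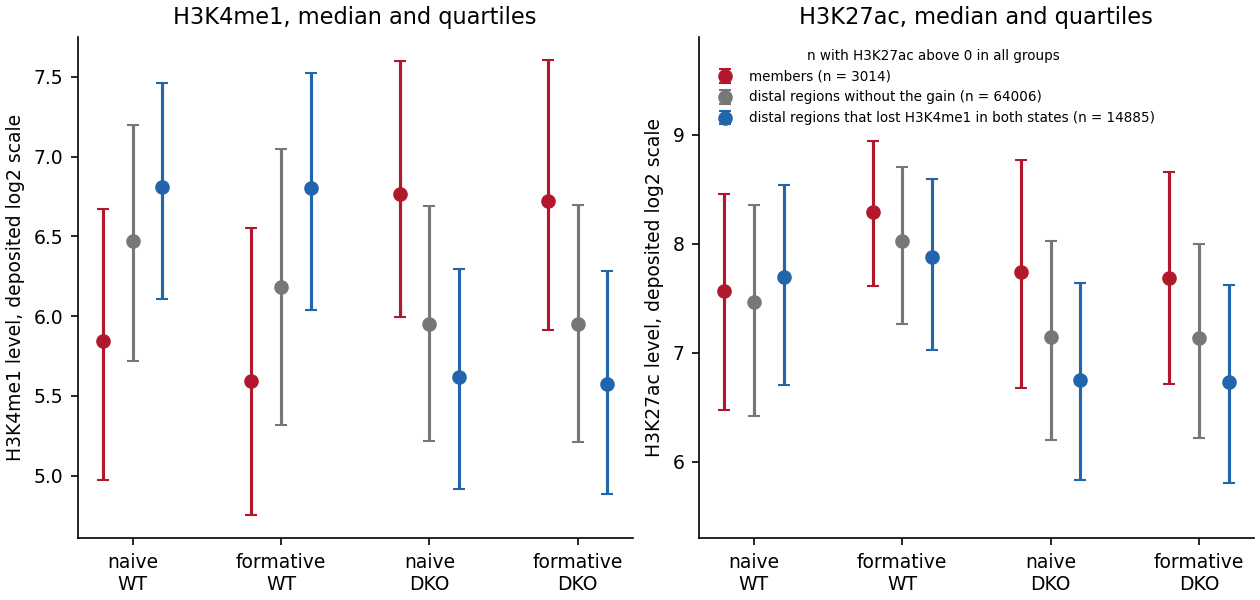
Median level with quartiles (vertical axes, deposited log2 scale) of H3K4me1, which chose the members, and of H3K27ac, which did not, in the 4 groups, for members, other distal regions and the distal regions that lost H3K4me1 in both states. Within the members, H3K27ac goes from 7.56 in WT to 7.75 in DKO in naive cells and from 8.29 to 7.69 in formative cells.

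In formative cells the H3K27ac difference also rose with the strength of the signal. In 5 bins of equal size of the mean WT read concentration that the authors' deposited table gives, the members' formative difference went from -1.35 in the weakest to 0.71 in the strongest, and that of the other distal regions from -1.46 to -0.26. The naive difference did not rise in this way. It was highest in the weakest bin, at 0.78 over 745 members and 0.49 over 10460 other regions. In the strongest bin the naive difference was 0.37 at 416 members and -0.37 at 13793 other regions. The WT values enter both the bins and the differences, so the comparison that holds is between members and others within a bin. Members were higher in every bin in both states. They were also over-represented among weak regions, with 1030 members in the weakest bin and 416 in the strongest.

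**Figure D3:**
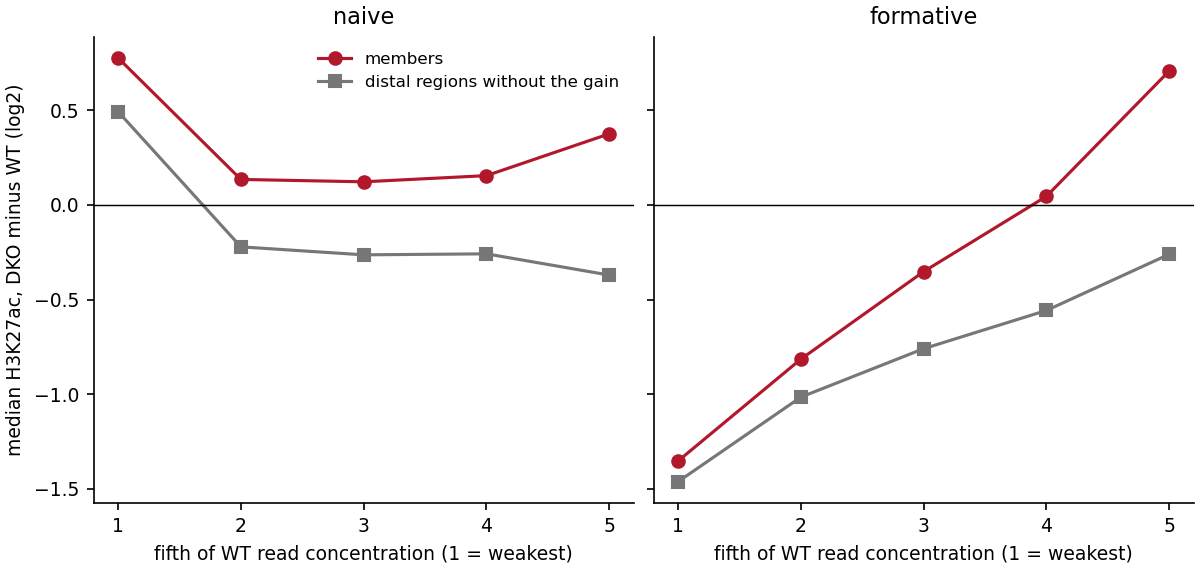
Median H3K27ac difference, DKO minus WT (vertical axis, log2), in 5 bins of WT read concentration (horizontal axis), for members and other distal regions in naive and formative cells. The gap between the lines is widest in the strongest bin, where the formative medians are 0.71 and -0.26.

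Regions over tRNA genes gained H3K4me1 often. tRNA genes are transcribed by RNA polymerase III from promoters inside the gene. Of the 53 distal regions that overlap a RefSeq tRNA gene, 36 were members (67.9%). The share was 17 of 63 (26.98%) for genes that RefSeq annotates as small nuclear RNA, a class that includes RNA parts of the spliceosome. It was 5 of 8 (62.5%) for 5S ribosomal RNA genes, with all 5 members on chromosome 8. For small nucleolar RNA genes the share was 7 of 94 (7.45%), and for microRNA genes 0 of 6. These classes were looked up after other results were seen.

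At the 36 tRNA members the median H3K27ac level was 8.33 in naive WT, from 6.28 to 9.85, and 8.92 in naive DKO, from 6.12 to 10.17. In formative WT it was 7.39, from 4.09 to 10.04, and in formative DKO 8.69, from 6.15 to 10.28. The groups overlap, and formative WT is the lowest. The median difference, DKO minus WT, was 0.67 in naive cells, with 10 regions at least 2-fold higher (27.8%, against 19.2% of all regions) and 4 lower (11.1%, against 26.3%). It was 1.33 in formative cells, with 22 higher (61.1%, against 11.2%) and 0 lower (against 39.3%). In formative cells 33 of 36 lay above 0. Both medians stayed above 0 under 5 other scalings, lowest at 0.10 and 0.70 with promoters set equal. The 16 tRNA regions that were not members and were above 0 in all groups had medians of 0.16 and 1.04.

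**Figure D4:**
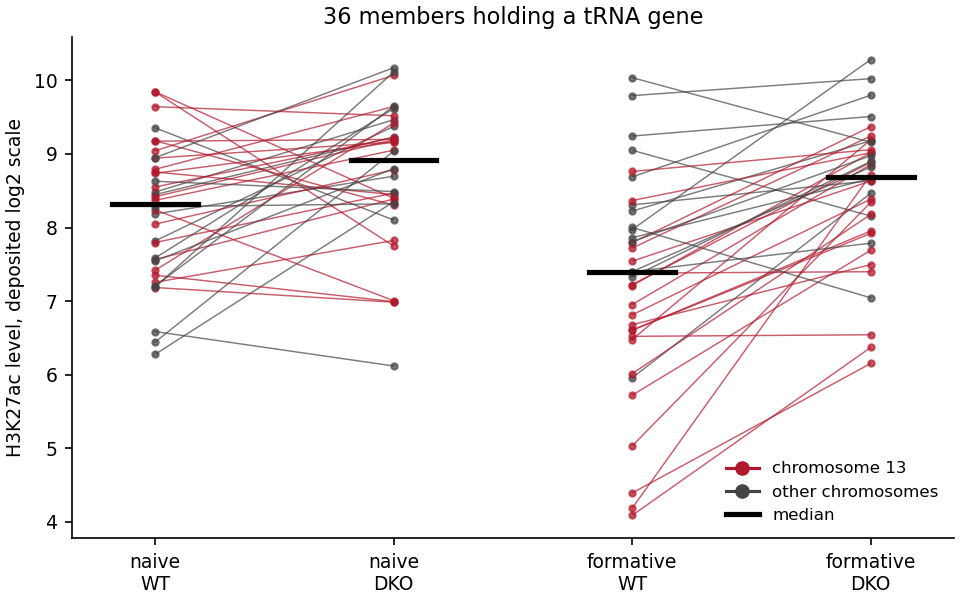
H3K27ac level (vertical axis, deposited log2 scale) of the 36 members over a tRNA gene in the 4 groups, with a line joining WT and DKO of the same region and a bar at the median. Most lines climb in formative cells, where the median is 7.39 in WT and 8.69 in DKO.

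In the replicated WT comparison of the authors' deposited table, 15 of the 36 tRNA members fell from naive to formative cells at a DiffBind adjusted p under 0.05, and 2 rose, where 15.8% of all regions fell and 20.8% rose. The pooled median difference, formative minus naive, was -1.10 in WT and -0.22 in DKO, and the difference between these was not tested. The region near Tmpo, which holds the tryptophan tRNA gene n-TWcca2 printed above, was at 8.45 in naive WT and 5.96 in formative WT. This was a fall with a DiffBind adjusted p of 1.06e-27 in the authors' deposited table, and DKO was at 9.23 and 8.47. The region was among those picked for their WT fall, and a GENCODE start lay inside it. The region near Hjv with n-TNgtt12 was at 8.95 in naive WT, 10.17 in naive DKO, 7.97 in formative WT and 10.28 in formative DKO. The region near Cfap126 with n-TVcac6 was at 7.82, 9.37, 8.69 and 9.80 in the same order.

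Of these members 21 lay on chromosome 13 between 21169929 and 23519437, in the cluster that also holds many histone genes. Within that interval 31 of 78 distal regions were members, 10 of them among the 54 without a tRNA gene. The chromosome 13 tRNA members had a median difference of 0.42 in naive and 1.58 in formative cells, and the 15 elsewhere, 1.22 and 0.80. Copies of a tRNA gene are near identical, and the effect of reads that map to several copies was not tested. The regions are soft-masked over a median of 14.5% of their bases, which does not measure how reads map. The letters GTTCGANNC, searched on both strands of whole regions, were in 26 of the 36 tRNA members, but in 9.36% of all members and 11.4% of all distal regions.

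The 17 members over small nuclear RNA genes also had both DKO groups above both WT groups, with median H3K27ac levels of 8.14 in naive WT, 8.80 in naive DKO, 7.98 in formative WT and 8.995 in formative DKO. Their median difference was 0.36 in naive and 1.06 in formative cells. In formative cells 10 were higher (58.8%, against 11.2% of all regions) and 1 lower (5.88%, against 39.3%). The naive median was -0.21 with promoters set equal, and the formative one stayed above 0 under all 5 other scalings. The 45 such regions without the gain had medians of -0.11 in both states. The 5S members had differences of -0.36 and -0.17 and no region past 2-fold.

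CpG-rich members outside repeats and small RNA genes, 315 regions, had a median H3K27ac level of 8.10 in naive WT and 8.85 in naive DKO, and 8.54 and 8.78 in formative cells. The difference was 0.80 in naive cells, with 125 of 302 higher (41.4%, against 19.2% of all regions) and 29 lower (9.60%, against 26.3%). It was 0.38 in formative cells, with 92 higher (30.5%, against 11.2%) and 57 lower (18.9%, against 39.3%). With promoters set equal the medians were 0.22 and -0.25. A GENCODE start lay inside 34.3% of them. Those with a start had medians of 0.76 and 0.57 and those without, 0.81 and 0.18. In comparison the 1947 members above 0 that were neither CpG-rich nor repeat-rich had 0.40 in naive and -0.63 in formative cells (-0.18 and -1.27 with promoters set equal, 0.69 and 0.13 with all regions set equal).

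The member near Foxd3, a transcription factor of the formative transition, held 5.89 CpG per 100 bases. Its H3K27ac level was 8.24 in naive WT, 8.68 in naive DKO, 5.17 in formative WT and 6.44 in formative DKO, so that both formative groups are low. The member near Ncoa6, a subunit of the MLL3/4 complexes, was at 8.38 in naive WT and 9.21 in naive DKO, and at 6.11 in formative WT and 8.80 in formative DKO. Near Rreb1, which encodes a zinc finger factor downstream of RAS, the CpG-rich member was at 6.60 in naive WT, 10.87 in naive DKO, 7.80 in formative WT and 9.77 in formative DKO. Near Fos, an immediate early gene, it was at 6.49, 8.62, 8.04 and 9.33 in the same order, higher in DKO in both states. A GENCODE start lay inside the members near Ncoa6 and Rreb1, but not inside those near Foxd3 and Fos.

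Genes of the housekeeping list had 7 members among 55 distal regions (12.7%, against 4.72% of all distal regions). Of the 7, 6 were at least 2-fold higher in formative DKO cells and 0 lower, where 11.2% and 39.3% of all regions were. In naive cells 3 were higher and 0 lower, where 19.2% and 26.3% of all regions were. Near Actb, the gene for cytoplasmic actin, H3K27ac was 9.05 in naive WT, 10.23 in naive DKO, 9.10 in formative WT and 11.14 in formative DKO. Near Rplp0, a ribosomal protein gene, it was 8.19, 10.90, 8.47 and 10.93 in the same order. The DKO levels are the higher ones in both states at both. A GENCODE start lay inside the member near Rplp0, but not inside the one near Actb.

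**Figure D5:**
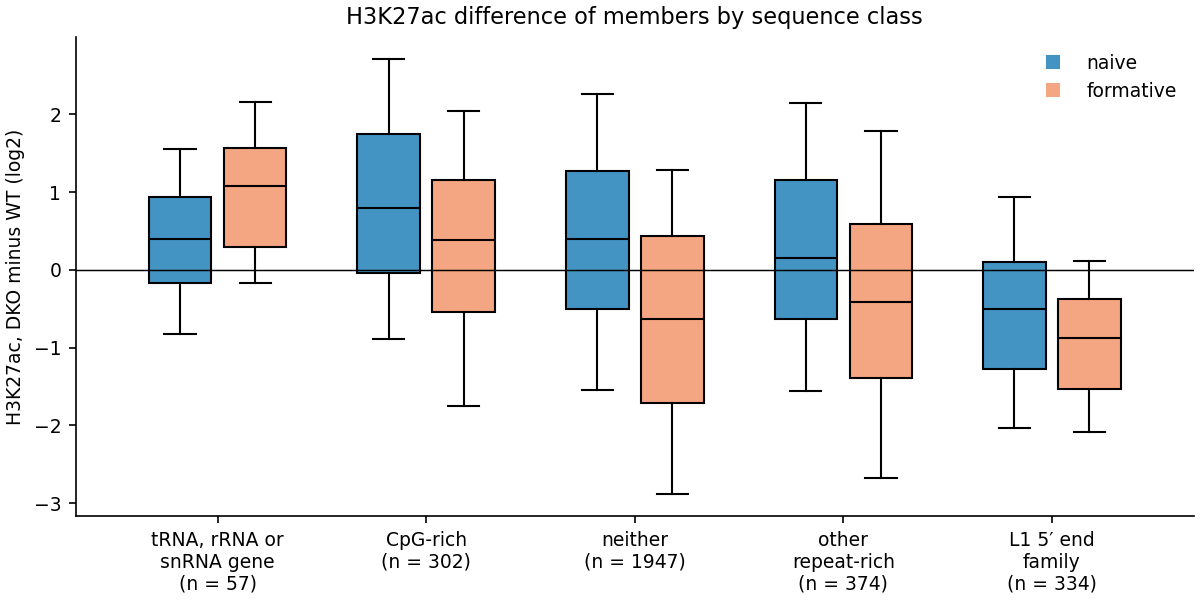
H3K27ac difference, DKO minus WT (vertical axis, log2), of members by sequence class in naive and formative cells, with the median as a line, quartiles as the box and whiskers at the 10th and 90th percentiles. The class with a tRNA, rRNA or snRNA gene has medians of 0.40 in naive and 1.07 in formative cells, and the L1 family -0.50 and -0.87.

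The 335 members of the L1 family lay on 20 chromosomes, had a median of 4.09 CpG per 100 bases and were soft-masked over 98.7% of their length. Their median level was 7.80 in naive WT, 7.26 in naive DKO, 8.08 in formative WT and 7.14 in formative DKO. The difference was -0.50 in naive cells, with 34 of 334 higher (10.2%, against 19.2% of all regions) and 111 lower (33.2%, against 26.3%). It was -0.87 in formative cells, with 8 higher (2.40%, against 11.2%) and 149 lower (44.6%, against 39.3%), and this median lies near the -0.74 of other distal regions. Both medians stayed below 0 under the 5 other scalings, nearest to 0 at -0.21 and -0.10 with all regions set equal. Of the 893 distal regions that match the family's representative region over at least 300 bases at 85% identity, 195 were members (21.8%), and the 697 of the rest that were above 0 had medians of -1.55 and -1.30. Values at single copies are uncertain, because how reads that map to several copies were treated is not given in the sources used here. Repeat-rich members outside this family had medians of 0.15 and -0.41, which were 0.44 and 0.36 with all regions set equal.

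A smaller family of 21 like members, 14 of them on the Y chromosome, had the highest median H3K27ac differences of the 7 largest families. These were 2.44 in naive and 3.25 in formative cells. At least 2-fold higher were 20 regions in naive cells and 21 in formative cells, where 19.2% and 11.2% of all regions were. At 1 of the 10 members near Erdr1 the level was 8.44 in naive WT, 11.94 in naive DKO, 7.89 in formative WT and 12.95 in formative DKO. At 1 of the 5 members near Ccr1 on chromosome 9, it was 10.01, 12.73, 9.84 and 13.07 in the same order. WT and DKO values are far apart at both. These copies share sequence, so they are not separate observations. The 20 members on Y had medians of 2.19 in naive and 3.22 in formative cells. The 24 other distal regions on Y above 0 in all groups went the other way, at -2.20 and -2.22. On X the other distal regions were at -1.04 and -0.90. The cause was not tested. The Y chromosome had the largest share of members, 42.6% of 47 distal regions, followed by X (7.80%) and 13 (7.39%). The share was lowest on 8 (1.54%), 17 (2.03%) and 14 (2.55%). On these 3 the H3K4me1 difference of all distal regions was also lower than over all chromosomes. Its medians were -0.66, -0.68 and -0.65 in naive cells, against -0.41 over all chromosomes. In formative cells they were -0.29, -0.36 and -0.32, against -0.12. On X, where the share of members was high, the medians were -0.35 in naive and -0.31 in formative cells. Whether these medians set the shares was not tested.

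Among members outside repeats with strong H3K27ac, the one near Hs2st1, a heparan sulfate sulfotransferase gene, stood at 6.53 in naive WT, 10.63 in naive DKO, 7.93 in formative WT and 10.82 in formative DKO. The CpG-rich one of the pair near Wdr26 was at 5.51, 10.76, 8.70 and 9.79 in the same order. At the other end, the member near Camk2b, the gene for a calcium-dependent kinase of neurons, was at 8.67 in naive WT, 4.67 in naive DKO, 6.22 in formative WT and 4.26 in formative DKO. In the authors' deposited table the RNA of Camk2b also differed, by -2.78 in naive and -1.39 in formative cells on the log2 scale. Of the 8 members with the lowest differences by the rule for named regions, 6 belonged to the L1 family.

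Between naive and formative WT cells, 823 members rose (24.5%, against 20.8% of all regions) and 340 fell (10.1%, against 15.8%) at a DiffBind adjusted p under 0.05 in the authors' deposited table. At the members that rose and were above 0 in all groups, the pooled median difference, formative minus naive, was 3.26 in WT and 0.30 in DKO. At those that fell it was -2.04 in WT and -0.70 in DKO. The other distal regions had like values, 2.51 and 0.30 where they rose and -2.10 and -0.65 where they fell. The formative difference, DKO minus WT, was -1.31 at members and at other regions that rose, and 1.33 against 0.38 at those that fell. The 2 comparisons share the WT levels, so they are not independent. The risen and fallen regions were also picked on the WT change, which favours a larger change in WT than in DKO. By size, 1317 members were at least 2-fold higher in formative WT (43.7%, against 38.1% of all regions) and 420 lower (13.9%, against 18.9%). With all regions set equal these were 34.1% and 21.8% of members, after quantile normalization 36.1% and 22.7%, and after a loess offset 25.2% and 20.8%. The WT median of all regions, 0.48 as deposited, was 0.026, 0.015 and 0.029 in the same order. In DKO cells 522 were higher (17.3%, against 16.6%) and 566 lower (18.8%, against 17.9%), both near the share of all regions. With promoters set equal the members' DKO shares were 19.9% and 15.9%, and with equal sums 20.8% and 15.1%. The DKO median of all regions, -0.07 as deposited, was then 0.05 and 0.09.

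The member near Msx2, a homeobox gene, fell from naive to formative WT cells with a DiffBind fold of -3.60 and an adjusted p of 6.79e-26 in the authors' deposited table. Its level was 8.89 in naive WT and 5.32 in formative WT, but 8.56 and 8.08 in DKO. Near Eif2s2, a subunit of a translation initiation factor, a repeat-rich member was at 10.65 and 7.01 in WT and at 10.49 and 9.01 in DKO, with a fold of -3.65 and an adjusted p of 1.16e-27 in the authors' deposited table. Near Ncor1, a nuclear corepressor gene, the levels were 9.904 and 6.18 in WT and 9.28 and 8.91 in DKO, with a fold of -3.73 and an adjusted p of 1.5e-08 in the same authors' deposited table. At all 3 the formative WT group is the low one, but the choice of regions favours this. The members near Msx2 and Eif2s2 were picked for their WT fall. The member near Ncor1 was picked for its DKO minus WT difference, which uses the same WT levels. Of the members that rose, the one near Sptbn5, a spectrin gene, was at 2.23 and 8.25 in WT and at 6.80 and 6.87 in DKO, with a fold of 5.90 and an adjusted p of 3.97e-09 in the authors' deposited table.

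Genes of pluripotency and lineage lists had few members, and the shares of members below are to be read against the 4.72% of all distal regions. Naive pluripotency genes had 6 members among 175 distal regions (3.43%). Of the 6, 3 were higher and 0 lower in naive DKO cells, where 19.2% and 26.3% of all regions were. In formative DKO cells 0 were higher and 2 lower, where 11.2% and 39.3% of all regions were. Formative genes had 4 of 126 (3.17%), of which 2 were above 0 in all groups. Core pluripotency genes had 4 of 94 (4.26%), with medians of -0.79 in naive and 1.28 in formative cells. Near Utf1, a gene of undifferentiated stem cells, the member was at 9.83 in naive WT, 7.92 in naive DKO, 7.77 in formative WT and 8.76 in formative DKO. Near Otx2, a driver of the formative state, it was at 8.50, 6.22, 6.78 and 6.61, so naive WT stands above the other groups. A GENCODE start lay inside the member near Utf1, but not inside the one near Otx2.

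Wnt targets had 9 members of 142 (6.34%), genes of the H3K4 and H3K27ac machinery 8 of 191 (4.19%), LIF and STAT3 genes 1 of 130 (0.769%), and germline or early embryonic genes 3 of 21 (14.3%). The lists of primed mesendoderm, fibroblast feeder and imprinted genes had 0 members among 50, 24 and 38 distal regions. No member had Kmt2c or Kmt2d as its nearest gene. Most lists hold too few members for their medians to describe more than single regions.

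Of the 2709 genes nearest to a member, 1461 had RNA values in the authors' deposited table, from libraries outside this series. In that authors' deposited table the median log2 RNA difference, DKO minus WT, was 0.16 in naive and 0.13 in formative cells for these genes, against 0.006 and 0.05 for 6538 genes nearest to a distal region but to no member. In naive cells 153 genes stood 2-fold or more above WT (10.5%, against 8.54% of all 9781 genes) and 104 stood 2-fold or more below it (7.12%, against 11.2%). In formative cells 89 were higher (6.09%, against 5.87%) and 66 lower (4.52%, against 5.05%), near the share of all genes. For the 111 genes near a member with H3K27ac higher in both states, the medians in the authors' deposited table were 0.23 and 0.26, and for the 139 near a member lower in both, 0.05 and 0.009.

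Bcl11b, a zinc finger factor best known in T cells and neurons, was nearest to 7 members among 18 distal regions, and its RNA in the authors' deposited table was 4.79 higher in naive and 0.32 higher in formative DKO cells on the log2 scale. H3K27ac at these members was mixed: 2 of the 7 were listed at 0 in naive WT, and of the other 5, 4 had a difference above 0 in naive cells and 1 in formative cells. The intronic member at chr12:107951036-107951700, chosen after its values were seen, was at 6.70 in naive WT, 8.24 in naive DKO, 9.29 in formative WT and 9.71 in formative DKO. Dkk1, a secreted Wnt inhibitor, had an RNA difference of 5.04 in naive and 0.15 in formative cells in the authors' deposited table, and its member was at 9.36 in naive WT, 10.14 in naive DKO, 9.70 in formative WT and 9.01 in formative DKO. Zscan4c, a gene of the early embryo, had RNA differences of -3.26 and -2.93 in the authors' deposited table, and its member was at 6.41, 6.31, 8.18 and 2.65 in naive WT, naive DKO, formative WT and formative DKO.

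Of the short motifs searched, 4 are given here. In the central 300 bases, on both strands, the AP-1 motif TGANTCA was in 6.59% of members, 9.48% of the other distal regions and 9.35% of all distal regions. The ESRRB motif AAGGTCA was in 4.11%, 6.52% and 6.41% in the same order, and the octamer TGCAAAT in about the same share, 3.85%, 3.97% and 3.96%. The ETS motif CCGGAAG, which holds a CpG, was more frequent, in 4.86%, 1.92% and 2.06%. Among regions under 50% soft-masked it was in 2.85% of members and 1.39% of the other distal regions. A match to these letters is a description of sequence and not a binding site.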

How the data were processed

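H3K27ac CUT&Tag libraries were processed by the submitters with Trim Galore, Bowtie2, SEACR, DiffBind and deepTools on mm10, per the submitters' processing notes. Versions are not stated there. The deposited table holds 1 pooled log2 level per group, mark and region, and the deposited differences equal the differences of those levels. DiffBind's fold and its adjusted p-value, which set formative against naive cells of the WT, are the authors' own deposited values, as are the log2 RNA differences. The H3K4me1 columns come from libraries outside this series. Another 8 columns of RNA levels per group were not used. Members and gene lists were chosen with earlier results of these data known.

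The pooled columns do not allow the count tests first foreseen, so the DKO comparisons are described by size. A region was called at 2-fold, and regions listed at 0 in any H3K27ac group were left out of medians. Depth per library is unknown. Replicates are independent cultures, which the pooled values do not separate. CpG, GC and soft-masking were read with pysam 0.24.0 from RefSeq GRCm38, and small RNA genes from its annotation. Transcript starts came from GENCODE. Members were compared with one another by blastn 2.17.0 and grouped where they matched over at least 300 bases at 85% identity. CpG-rich means at least 3 CpG per 100 bases and repeat-rich at least 50% soft-masked. Scripts ran in Python 3.11.15 with pandas 2.3.3, numpy 2.4.6 and statsmodels 0.14.6, and were tested on simulated data.

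Named regions were the 8 highest and 8 lowest in H3K27ac difference among the more strongly marked members with 1 sign in both states, the 5 largest H3K4me1 gains, the 5 rising and 5 falling members with the smallest DiffBind adjusted p, up to 3 members per gene list, the 3 on either side of the threshold, members of Kmt2c or Kmt2d, the 5 genes with most members and the 5 genes at either end of the RNA differences. The text prints only some of these, and a few are not reported here. Alternatives covered the scaling between groups, the thresholds, the distance, zeros, strength and sex chromosomes. Leaving out the L1 family, leaving out repeat-rich regions and centring by chromosome were chosen after seeing the data.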

Additional observations from a re-analysis of the deposited data

How the results depend on the processing

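The excess of members over other distal regions in H3K27ac difference, DKO minus WT, stayed above 0 in both states under the scalings, thresholds and filters tried. Its lowest formative values were 0.06 (gain of at least 1) and 0.08 (over 10 kb from a start). In formative cells it was not above 0 for CpG-poor members under 50% soft-masked or on 4 of 21 chromosomes. The members' own medians moved. In naive cells the difference was 0.58 with all regions set equal, -0.29 with promoters set equal, 0.51 with equal sums, 0.42 after quantile normalization, 0.41 at a gain of at least 1, 0.44 in the stronger regions, 0.41 without the L1 family and 0.45 under 50% soft-masked. In formative cells it was 0.23, -1.16, -0.15 and 0.10 under the same 4 scalings, 0.36 after a loess offset, -0.67 at a gain of at least 1, -0.70 over 10 kb, -0.68 with zeros kept and 0.42 in the stronger regions. The formative minus naive difference in WT was 0.24 with all regions set equal, 0.87 with promoters set equal, 0.29 after quantile normalization, 0.11 after a loess offset, 0.83 at a gain of at least 1, 0.88 over 10 kb, 0.93 with zeros kept, 0.87 under 50% soft-masked and -0.15 in the stronger regions, where its excess over other regions was -0.21. In DKO it was 0.035 with promoters set equal, 0.072 with equal sums and -0.23 in the stronger regions. The cause was not tested. In the authors' deposited table, 566 members rose and 256 fell at a DiffBind adjusted p under 0.01, against 823 and 340 under 0.05. Shares of all regions under 0.01 are not given here, so these counts show only how many members stay called.

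No paired analysis was possible because the deposited columns pool the replicates of each group, and leaving out a replicate was not run for the same reason. Depth is unknown, which limits what weak or narrow regions show. The replicated comparison covers WT cells alone.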
